A study of Rattus norvegicus with 3 samples.

Results

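Albumin (Alb) and 9 other genes for abundant carrier proteins of blood plasma (Ttr, Rbp4, Gc, Tf, Hp, Hpx, Ambp, Serpina1 and Ahsg) are described here in rat kidney RNA, 10 of the 14188 genes tested on the arrays. Of the 14188, 8917 had a gene symbol, and each probe without one was counted as a gene. The members were chosen by name, as plasma carriers, after earlier results on these arrays had shown falls of liver genes such as Alb in G200. The log2 ratio of G200 over control is therefore among the values that chose them, and it is given below as a description, with no test.
Male Sprague-Dawley rats, 5 weeks old at purchase, drank water with 200 ppm GABA (G200) or without GABA (control). RNA of the kidney, labelled as its non-tumor region, was compared on 3 Agilent arrays with 2 colours. The methods name no tumor in these rats. Control RNA carried Cy3 and G200 RNA carried Cy5 throughout, with 0 arrays where the dyes were exchanged, so a difference between the dyes and the effect of GABA cannot be told apart. The 3 arrays came from 1 slide and 1 scan. Of 42877 spots other than controls, 59.8%, 62.7% and 62.3% were well above background in Cy3 on replicates 1, 2 and 3, and 63.0%, 56.6% and 61.0% in Cy5.

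Plasma carriers are secreted mainly by hepatocytes, the parenchymal cells of the liver, and move fatty acids, hormones, vitamins, iron, hemoglobin and heme through the blood. The kidney meets them as proteins. The smaller carriers pass the glomerular filter, and proximal tubule cells take them up through the endocytic receptors megalin (Lrp2) and cubilin (Cubn) with their adaptors, which returns vitamins and iron to the body.

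Each of the 10 genes had 1 probe with 1 spot, and all 10 were well above background in both colours on all 3 arrays, with 0 member spots marked as outliers. The log2 ratio of every member was below -1, a 2-fold difference, on every array. Of all genes tested, 336 (2.37%) were that low on all arrays (522 without replicate 2, 105 with median centring of the dyes, 22 without dye normalization, 692 with a background offset of 0 and 1048 with the deposited log ratio). With median centring and without dye normalization 0 of the 10 members were, because of replicate 1, and nothing is read from this contrast because the members were chosen with it known. The median log2 ratio of the 10 genes was -1.63 on replicate 1, -3.14 on replicate 2 and -4.37 on replicate 3. The G200 signal at this median was 32.4%, 11.3% and 4.83% of the control signal. The arrays thus differed widely in the size of the fall, and the 10 genes shared a pattern, with the lowest ratio on replicate 3 and the highest on replicate 1. Of all genes tested, 13.5% had it. Gc was an exception in 3 other settings. Its ratios on replicates 2 and 3 were -2.12 and -2.06 with median centring of the dyes, -1.92 and -1.72 without dye normalization, and -2.83 and -2.74 with the log ratios scaled between arrays. In bulk tissue, fewer cells of a type and less RNA per cell cannot be told apart.

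**Figure D1:**
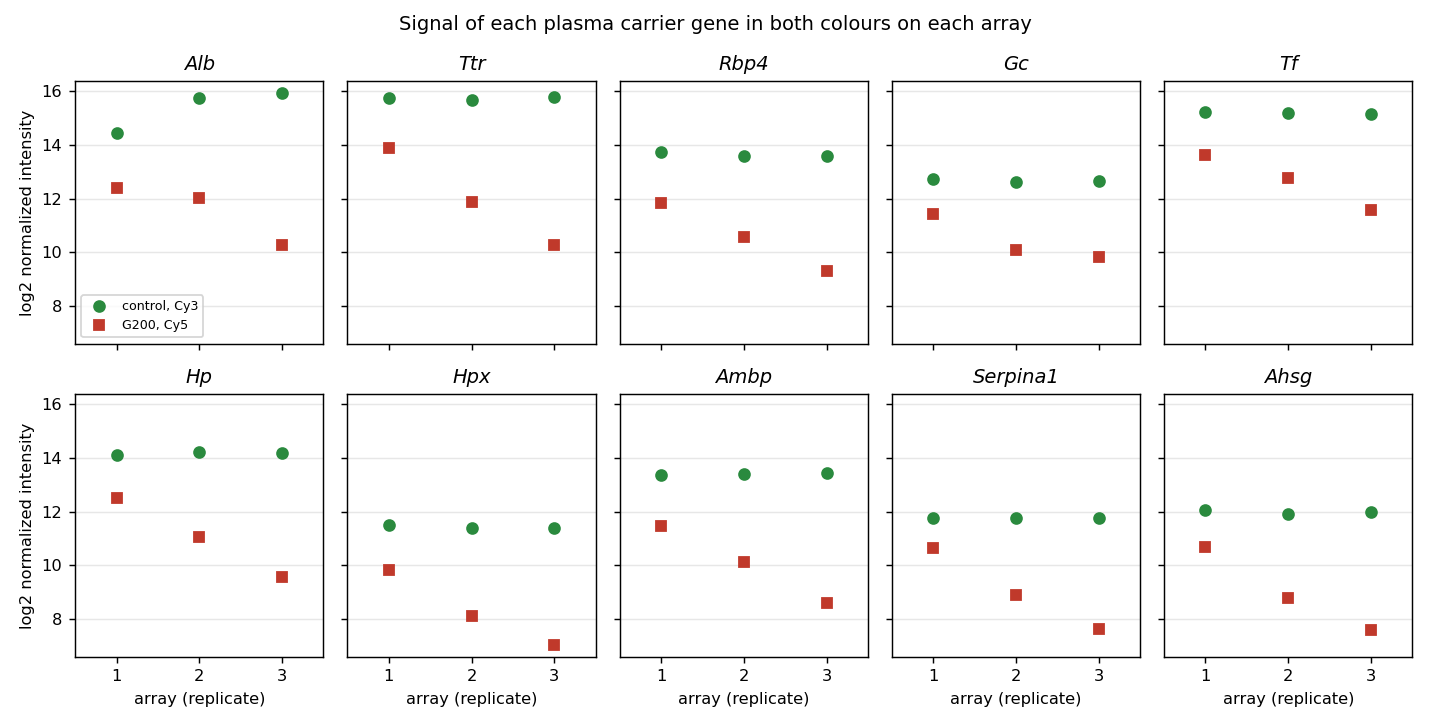
Log2 normalized intensity of each carrier gene in the control (Cy3, green circles) and in G200 (Cy5, red squares) on each array. The control points of 9 genes lie within 0.164 of each other and those of Alb within 1.49, while every G200 point lies below the control point of its array. Levels of different probes are not comparable between panels.

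Albumin is the main protein of plasma and carries fatty acids, bilirubin and many drugs. The control level of Alb, a log2 normalized intensity, was 14.44, 15.74 and 15.93 on replicates 1, 2 and 3, and the G200 level was 12.39, 12.01 and 10.26. The log2 ratio of Alb was -2.06, -3.73 and -5.67 on the 3 arrays, with a mean of -3.82 ± 1.81 (SD, n = 3). Alb had the lowest mean ratio of the members. Its control signal on replicate 1 was out of step with the other arrays. The net control intensity of Alb was 13578 on replicate 1 against 39598 and 40913 on replicates 2 and 3. Of the 14188 genes tested, 5 including Alb had a control level that varied this much between arrays, and the median range over genes was 0.119. The other 9 carriers had control ranges from 0.020 to 0.164. The spot carried no outlier mark, and its ratio divides signals of the same spot. Why this spot was dim was not tested.

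Transthyretin carries thyroid hormone and holds retinol-binding protein in the circulation. The control level of Ttr was 15.73, 15.67 and 15.78, and the G200 level was 13.88, 11.86 and 10.29 on replicates 1, 2 and 3. Its log2 ratio was -1.86, -3.80 and -5.49, with a mean of -3.72 ± 1.82 (SD, n = 3). Ttr thus stood next to Alb, with a steady control and the widest range of G200 levels among the members, 3.59 on the log2 scale. The G200 range of Alb, 2.12, takes in its dim spot on replicate 1, so these 2 genes are not compared in range.
Retinol-binding protein 4 carries vitamin A in a complex with transthyretin. Rbp4 had a control level of 13.74, 13.57 and 13.58 and a G200 level of 11.83, 10.57 and 9.3. Its log2 ratio was -1.91, -3.01 and -4.27 (mean -3.06 ± 1.18, SD, n = 3), so the pair of proteins that travel together did not share the depth of the fall on replicates 2 and 3. On replicate 1 the ratios of Ttr and Rbp4 lay closer together than the spread of replicate spots, which had an SD of 0.065 on that array.
The vitamin D-binding protein, encoded by Gc, carries vitamin D metabolites and binds actin released from damaged cells. In the control, Gc had a level of 12.74, 12.61 and 12.66, and in G200 of 11.42, 10.08 and 9.84. The log2 ratio of Gc was -1.32, -2.53 and -2.81 (mean -2.22 ± 0.79, SD, n = 3). This was the smallest mean fall of the members, and on replicate 3 the G200 signal of Gc was still 14.2% of the control signal, against 1.97% for Alb. Gc was also the member whose net G200 intensity was higher on replicate 3, at 1266, than on replicate 2, at 1127.5.

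Transferrin carries iron to cells that display its receptor. Tf had a control level of 15.22, 15.19 and 15.13 and a G200 level of 13.63, 12.75 and 11.56. For Tf the log2 ratio was -1.60, -2.44 and -3.57 (mean -2.53 ± 0.99, SD, n = 3). On replicates 2 and 3 Tf stood with Gc above the other members, and on replicate 1 it was at their median.
Haptoglobin binds free hemoglobin. The control level of Hp was 14.09, 14.20 and 14.17, the G200 level was 12.50, 11.07 and 9.55, and the log2 ratio was -1.59, -3.14 and -4.62 (mean -3.12 ± 1.51, SD, n = 3). Hemopexin, which binds heme, had a control level of 11.49, 11.38 and 11.38 and a G200 level of 9.83, 8.12 and 7.04. Its log2 ratio was -1.66, -3.27 and -4.34 (mean -3.09 ± 1.35, SD, n = 3). The hemoglobin and heme scavengers therefore had similar ratios on replicates 1 and 2, near the median of the 10 genes. On replicate 3 Hp was lower than Hpx in this setting, but the order depended on the processing. With a background offset of 0, Hp was at -4.68 and Hpx at -4.87 on replicate 3. With the deposited log ratio they were at -4.82 and -4.81. Hpx had the weakest G200 signal of the members against its background, with a net intensity 2.27 times the local background on replicate 3.
Ambp encodes a precursor of alpha-1-microglobulin, a small heme-binding carrier, and of the protease inhibitor bikunin. Its control level was 13.36, 13.41 and 13.42, and its G200 level was 11.45, 10.11 and 8.58. For Ambp the log2 ratio was -1.91, -3.30 and -4.84 (mean -3.35 ± 1.47, SD, n = 3), somewhat lower than the median of the members on all arrays.

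Serpina1 encodes alpha-1-antitrypsin, the inhibitor of neutrophil elastase. Serpina1 had a control level of 11.76, 11.78 and 11.77 and a G200 level of 10.65, 8.89 and 7.61. Its log2 ratio was -1.11, -2.88 and -4.16 (mean -2.72 ± 1.53, SD, n = 3), which on replicate 1 was the smallest fall of all 10 genes. Fetuin-A, encoded by Ahsg, binds calcium phosphate in plasma and hinders its deposition. The control level of Ahsg was 12.06, 11.92 and 11.98, the G200 level was 10.67, 8.77 and 7.58, and the log2 ratio was -1.39, -3.14 and -4.40 (mean -2.98 ± 1.51, SD, n = 3). Ahsg was at the median of the members on replicates 2 and 3.

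**Figure D2:**
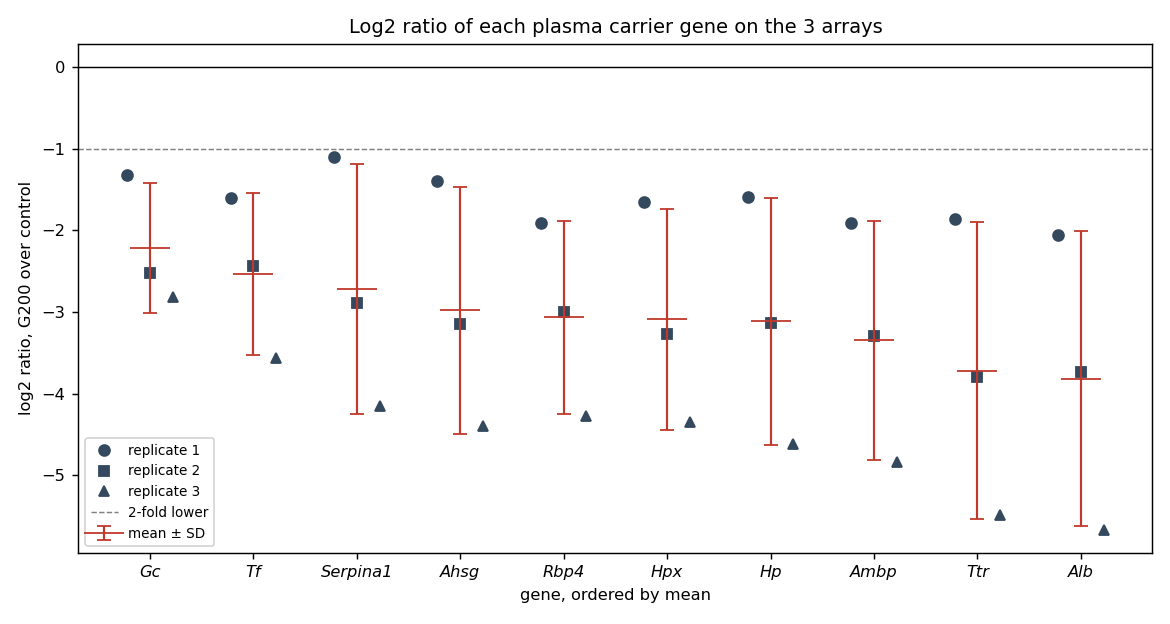
Log2 ratio of G200 over control for each carrier gene on replicates 1 (circles), 2 (squares) and 3 (triangles), with the mean and SD in red and a dashed line at a 2-fold fall. The means run from -2.22 in Gc to -3.82 in Alb, and within each gene the point of replicate 3 is the lowest.

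Because the arrays differed so much, each gene was also set against the median of the 10 genes on the same array. The difference of Gc from this median was 0.31, 0.62 and 1.56 on replicates 1, 2 and 3. That of Tf was 0.03, 0.70 and 0.81. Both were above the group on replicates 2 and 3. For scale, replicate spots of a probe within an array had an SD of 0.065, 0.065 and 0.075 of the log2 ratio (187 to 239 probes with at least 5 spots and a mean log2 brightness of 9 or more). This covers spot noise alone, without the spread between probes or rats, so the order of the members is a description. On the other side of the group, Alb differed from the median by -0.43, -0.59 and -1.29. Ttr differed from it by -0.23, -0.66 and -1.12. Between these pairs, Hp, Hpx, Rbp4 and Ahsg had mean differences from the median of -0.07, -0.04, -0.02 and 0.07. Apart from Hpx, these means hide arrays that departed from it, Rbp4 by -0.28 and Ahsg by 0.24 on replicate 1 and Hp by -0.25 on replicate 3. With a background offset of 0 the mean difference of Hpx was -0.18. Serpina1 was above the median on every array, by 0.52, 0.26 and 0.22, and Ambp below it, by -0.28, -0.16 and -0.47. The members' ratios spanned 0.95 on replicate 1, 1.36 on replicate 2 and 2.85 on replicate 3, so they lay farthest apart where the fall was deepest.
The ends of this order depended little on the processing. Gc had the mean ratio nearest 0 and Alb the lowest in all 9 settings that gave the members different values. The difference of Gc from the median ranged from 0.46 to 1.09 over them, and that of Alb from -0.94 to -0.51. Both were smallest without replicate 3, and the difference of Gc was 0.83 with all arrays. Tf was among the 2 genes nearest 0 in 8 of the 9 settings, and changed places with Serpina1 without replicate 3.

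**Figure D3:**
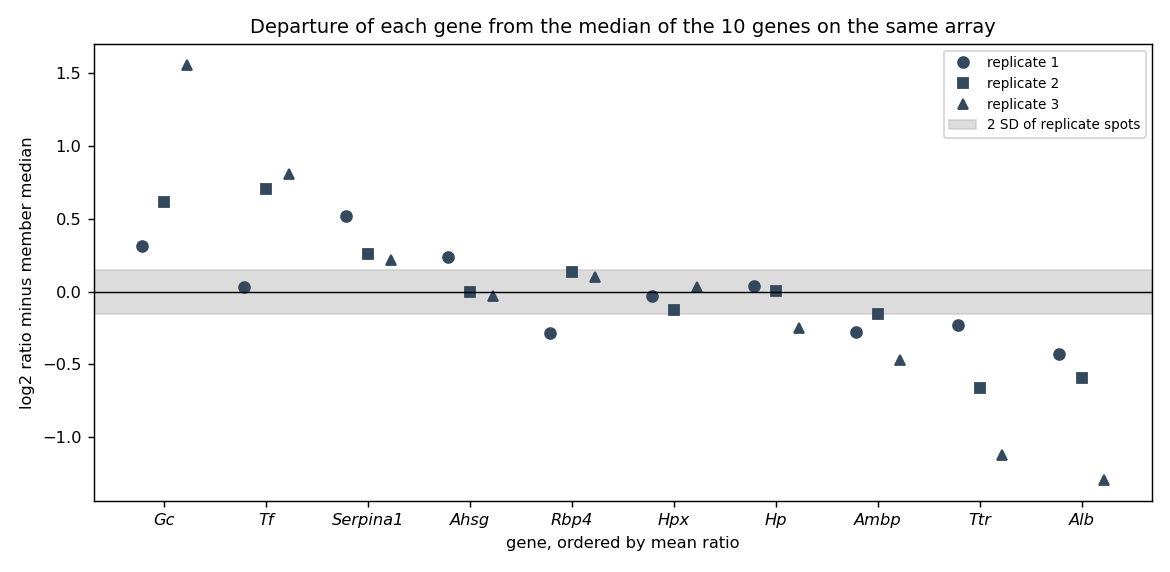
Log2 ratio of each carrier gene minus the median of the 10 genes on the same array, for replicates 1 (circles), 2 (squares) and 3 (triangles). The grey band is 2 SD of replicate spots to either side of 0. On replicate 3 Gc lies at 1.56 and Alb at -1.29, while Hpx lies between -0.13 and 0.03 on the 3 arrays.

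The size of the fall on replicate 1 depended on the normalization between the dyes. With loess, the setting used here, the 10 ratios on replicate 1 ran from -2.06 to -1.11. With the log ratio in the deposited tables they ran from -2.02 to -1.17. With median centring of the array in place of loess the range was -0.87 to -0.02, and with no normalization between the dyes -0.36 to 0.49. In these last settings 0 members were 2-fold lower on every array. Other bright genes shifted as well. Over 2354 genes at least as bright as the dimmest member and outside the plasma and hepatocyte lists, a comparison chosen after seeing the data, the median on replicate 1 was -0.08 with loess, 1.02 with median centring and 1.53 without normalization. The members' median minus that of the bright genes was -1.55, -1.52 and -1.52 in the same settings. On replicates 2 and 3 it was -3.09 and -4.31 with loess and -3.09 and -4.41 with median centring. With the deposited log ratio the distance on the 3 arrays was -1.58, -3.26 and -4.76. Median centring and no normalization differ by a constant on each array, so their distances are equal by construction. Loess takes off a smooth curve of brightness from members and other genes alike, so a distance close to theirs is no test of the fall. These distances come from the ratios that chose the members and are given as a description.

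**Figure D4:**
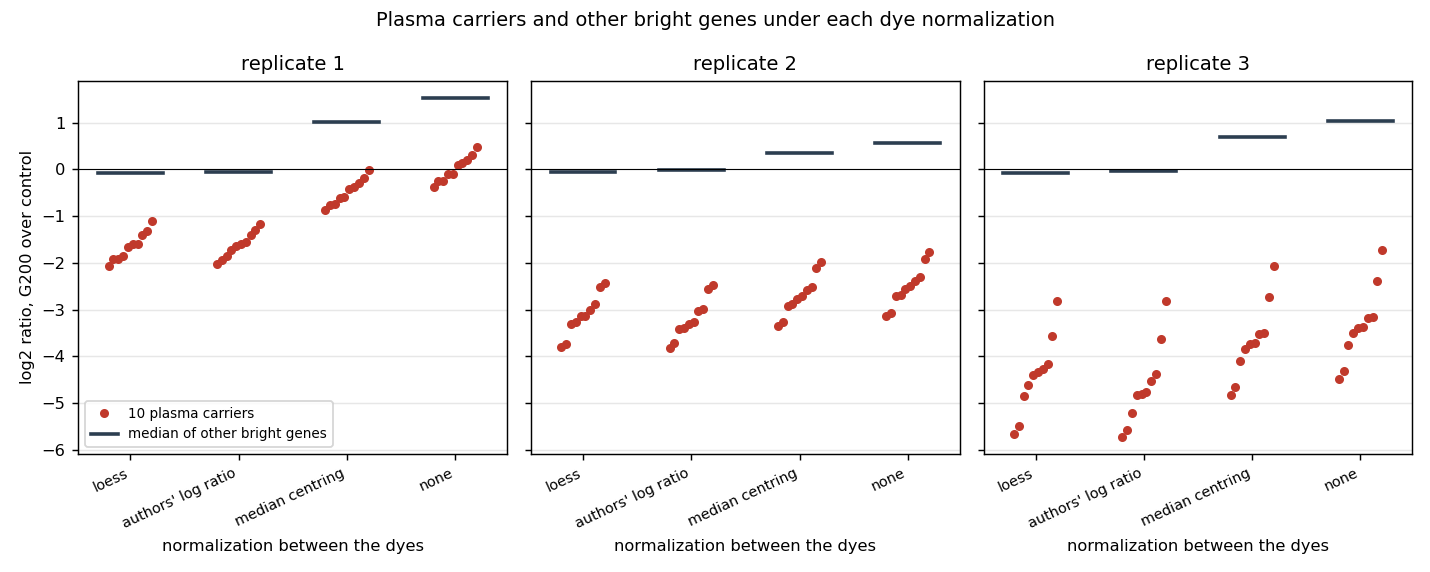
Log2 ratio of the 10 carrier genes (red points, sorted) and the median of 2354 other bright genes (dark bars) on each array, with loess, the log ratio in the deposited tables, median centring or no normalization between the dyes. On replicate 1 the bar lies at -0.08 with loess and at 1.53 without normalization, and the points lie below it in each setting.

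The promoters of the genes at the ends of the order, Alb and Ttr with the deepest falls and Tf and Gc with the smallest, are printed to show what sequence the co-moving genes share. RefSeq sequences of GRCr8 covering 250 bases before and 50 after the start were matched for 9 of the 10 members, and Hp was the unmatched gene. Bases -200 to -41 from the start are printed 5′ to 3′ on the strand of the gene, with matches to any searched motif in capitals. The start is that of the promoter table, which for Tf and Gc is the outer end of the gene in RefSeq and lies 64 bases inside the gene for Alb and 2074 bases inside it for Ttr. The Ttr stretch is therefore not the sequence before the outer end of its gene. The stretches lie at chr14:17907020-17907179 (minus strand) for Alb, chr18:12218558-12218717 (plus strand) for Ttr, chr8:112695417-112695576 (minus strand) for Tf and chr14:18916055-18916214 (plus strand) for Gc.
Alb: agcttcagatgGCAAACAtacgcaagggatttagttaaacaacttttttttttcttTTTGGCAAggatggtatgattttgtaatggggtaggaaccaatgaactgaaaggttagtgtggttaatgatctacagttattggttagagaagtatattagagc
Ttr: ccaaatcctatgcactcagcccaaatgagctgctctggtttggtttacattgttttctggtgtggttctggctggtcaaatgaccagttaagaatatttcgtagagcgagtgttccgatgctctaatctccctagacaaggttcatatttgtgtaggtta
Tf: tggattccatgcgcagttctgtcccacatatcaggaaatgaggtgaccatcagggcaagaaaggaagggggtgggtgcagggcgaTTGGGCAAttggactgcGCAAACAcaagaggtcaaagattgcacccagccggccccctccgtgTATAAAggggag
Gc: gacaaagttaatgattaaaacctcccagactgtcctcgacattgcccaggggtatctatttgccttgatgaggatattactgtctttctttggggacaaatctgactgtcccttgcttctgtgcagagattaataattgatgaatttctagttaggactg
The motifs were searched on both strands of the whole window. TTGCNNAA, a pattern of C/EBP sites, was found in Alb, Tf, Hpx, Ahsg and Rbp4, against 10.6% of 33469 promoters of the same length. TGTTTGC, a forkhead core that can share letters with TTGCNNAA, was found in Alb, Tf, Ahsg and Ambp, against 4.88%. The TATA box TATAAA was found in Tf at -52 and Rbp4 at -50, against 14.2%. The forkhead cores TGTTTAC (3.78% of promoters) and TATTTAC (3.51%) and the HNF4-type repeats CAAAGTCCA (0.391%) and CAAAGGTCA (0.424%) were found in 0 of the 9 members. Alb and Tf, from opposite ends of the order, both held TTGCNNAA and TGTTTGC, and Gc had none of the searched motifs in this window. The window of Ttr had none either, and nothing is read from it because of its place in the gene. A match describes the letters only.

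The 8 genes whose log2 ratios on the 3 arrays lay nearest to those of Alb, by Euclidean distance, were Rup2, Itih4, Fabp1, Mup4l1, Apoc1, Mup4l4, Mug1l1 and Mup5, at distances of 0.238 to 0.806. The nearest, Rup2, had ratios of -2.06, -3.90 and -5.84. Fabp1, the liver fatty acid-binding protein that acts inside cells, had -2.25, -3.85 and -5.31, and Apoc1, a small apolipoprotein, had -2.35, -4.12 and -5.68. A gene product that acts inside cells, Fabp1, was thus among these neighbours, which were chosen for their likeness to Alb. These likenesses describe 3 arrays. Mup and Mug genes belong to families of near-identical copies, so their probes may also read relatives.
Nearest to the median of the 10 genes were Cpamd8, Apoa2, Baat, Cyp3a2, Apoc2, Apoc3, Cyp2c13 and Cfi, at distances of 0.120 to 0.407. Apoa2, an apolipoprotein of high-density lipoprotein, had ratios of -1.64, -3.35 and -4.23. Baat, which joins bile acids to amino acids, had -1.92, -3.13 and -4.45. In all, 79 genes had a ratio on every array at or below that of the member nearest 0 there, the 10 members among them, and 63 of the 79 had a symbol.

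The companion lists were also chosen with falls of liver genes on these arrays known, so the counts of their calls are a description and not independent evidence. Other plasma proteins of hepatocytes were taken from a list of 29 genes, of which 24 were tested. All 24 were lower in G200 by limma's test (adjusted p under 0.05), against 25.9% of all genes tested, while 11.6% of all genes were higher. Of the 24, 7 passed the filter on dim probes through the control alone, where they are high, so the filter favoured their direction. With both colours required, the 17 genes tested were all lower, where 23.3% of all genes were. Without dye normalization 14 were lower, where 2.14% of all genes were. Over all genes, 3679 were lower and 1639 higher, and 1433 and 185 without replicate 3, where 11.4% of the calls were higher in place of 30.8%. When limma's variance was fitted in its robust mode, which treats widely spread genes apart, 17 of the 24 were called, beside 25.7% of all genes lower. Their median log2 ratio was -1.80 (-1.20, -1.94 and -2.23 on replicates 1, 2 and 3), beside -0.05 over all genes. The lowest was Itih4, a heavy chain of the inter-alpha-inhibitor family, with -2.24, -3.74 and -5.31 on the 3 arrays (mean -3.77 ± 1.54, SD; adjusted p = 0.00379 from limma, and 0.0634 with the robust model). Mup5, a carrier of small pheromones, had a mean of -3.40 ± 1.67 (SD), and Mug1, a protease inhibitor of the macroglobulin family, one of -3.32 ± 1.57 (SD), with adjusted p = 0.0854 and 0.0807 in limma's robust model. Hrg, which binds heme and heparin, followed with -3.14 ± 1.04 (SD). The medians of the lists are not compared with that of the carriers, because across the 50 genes of the plasma protein and enzyme lists the ratio followed the brightness of the control probe (Spearman's rho -0.832, and -0.639 with an offset of 0, across genes, which are not independent replicates), and a dim probe cannot show a deep fall. The order of the arrays was that of the carriers in 21 of the 24 genes. The methods' t-test compares groups with unequal variance, and it was run here on the log ratios against 0. By it, 0 of the 24 passed after adjustment, and over all genes 2 passed, with 4476 at an unadjusted p under 0.05.
Gc and Alb belong to a gene family with Afp and Afm, which encode alpha-fetoprotein and the vitamin E carrier afamin. Both were named after their values were seen. Afp had log2 ratios of -0.63, -0.79 and -0.97, and Afm had -0.82, -0.49 and -0.75. Afp was dim, with a control log2 level of 6.91 and G200 well above background on 2 of the 3 arrays, so a deep fall could not have been measured on this probe.

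Hepatocyte enzymes and transporters that are not secreted were taken from a list of 30 genes, of which 26 were tested. By the same test 24 were lower, beside 25.9% of all genes, with a list median of -1.25 (-1, -1.52 and -1.87 on replicates 1, 2 and 3). Without replicate 3, 15 of the 26 were lower, beside 10.1% of all genes, and with the robust model 17 were, beside 25.7%. Of the 26, 8 passed the filter through the control alone. With both colours required, 17 of the 18 genes tested were lower, beside 23.3% of all genes. Without dye normalization 12 were lower, beside 2.14% of all genes. Fabp1 had the lowest mean, -3.80 ± 1.53 (SD; adjusted p = 0.00368 from limma, and 0.062 with the robust model). Slc27a5, a bile acid and fatty acid ligase, had -2.75, -3.82 and -4.75, Hsd3b5, a steroid-metabolizing enzyme, a mean of -3.35 ± 1.24 (SD), and the drug-metabolizing Cyp3a2 one of -3.20 ± 1.54 (SD). In limma's robust model the adjusted p was 0.0534 for Hsd3b5 and 0.083 for Cyp3a2. Averaged over its probes, Hsd3b5 had a mean of -1.91. The 4 genes had mean ratios within the range of the carriers from their brightest probes. The genes not past the threshold, named after their values were seen, were the bile salt pump gene Abcb11 at -0.16 ± 0.09 (SD) and the serine dehydratase gene Sds at 0.06 ± 0.03 (SD), both dim in the control.

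The tested markers of hepatocytes were lower in G200, as the carriers were, but to differing depths. Of 10 hepatocyte markers 9 were tested, and Cps1 did not pass the filter on dim probes. The brightest was Alb, a member and so given with no test, and the 8 others were lower, beside 25.9% of all genes, with a median of -2.46. In limma's robust model Apoa2 (adjusted p = 0.0689) and Apoc3 (adjusted p = 0.0555) were not called, and Asgr1 was (adjusted p = 0.000669). Robust results of the other markers are not given, so their calls in that model are not known here. The summed normalized intensity of the 9 markers in the control was 58967, 90146 and 97148 on replicates 1, 2 and 3, and in G200 16345, 8893 and 4377. Without Alb, the 8 other genes summed to 36713, 35428 and 34721 in the control and to 10996, 4781 and 3148 in G200. The G200 sum was 30.0%, 13.5% and 9.07% of the control, the same order of arrays as for the carriers. Gene by gene, 8 of the 9 markers, Alb included, had this order, beside 13.5% of all genes, and Serpinc1 did not. The mean ratios of the 8 genes other than Alb ran from -3.32 to -1.23. All 9 genes were well above background in the control on every array, in RNA labelled as kidney. The part of hepatocyte RNA in the fall of the carriers was not tested.
The labelled tissue was checked on kidney markers, whose calls are to be read beside the 25.9% of all genes that were lower and the 11.6% that were higher. Proximal tubule markers ran from Slc5a2, dim at a control level of 6.385, to Kap at 16.4. The list summed to 167441, 148036 and 164480 in the control and 173778, 198130 and 166704 in G200. Of 9 tested, 2 were higher and 1 was lower, with a median of 0.06. Of 5 thick ascending limb markers 3 were higher, with a median of 0.41, and Umod (uromodulin) had the brightest probe, with a mean ratio of 0.87 ± 0.10 (SD; adjusted p = 0.00101 from limma). These bright probes depended on the dye normalization. The mean of Umod was 1.76 with median centring and 2.11 without normalization. Kap was at 0.38 and not called with loess, and at 0.64 with the deposited log ratio (adjusted p = 0.0306 from limma), 1.31 with median centring and 1.66 without normalization. The collecting duct list, led by Aqp2, had 4 genes tested, none past limma's adjusted threshold. The mean of Aqp2 was -0.30, and it was called at -0.43 without replicate 2, at 0.56 with median centring and at 0.91 without normalization. Podocyte markers, led by Podxl, had 1 of 5 higher, and the distal convoluted tubule was represented by Slc12a3 alone, at 0.34 ± 0.78 (SD) and -0.10 without replicate 1. No kidney list thus held a fall like that of the carriers.
Markers of neighbouring tissues were mostly at background. Of 6 genes of the exocrine pancreas only Ctrb1 passed the filter, at -0.84 ± 0.19 (SD; adjusted p = 0.00181 from limma), which became -0.47 with median centring and -0.12 without normalization (adjusted p = 0.588 from limma). It was -1.23 with a background offset of 0 and -1.37 with the deposited log ratio. Of the 4 skeletal muscle genes on the array 0 passed the filter, Ckm having the brightest probe. Adrenal cortex was represented by Cyp21a1 alone, at -0.43 ± 0.10 (SD; adjusted p = 0.00686 from limma, 0.0597 without replicate 3). Its ratio was 0.23 without dye normalization and -0.79 with the deposited log ratio. Of 3 adipocyte genes, with Adipoq the brightest, 1 was lower, beside 25.9% of all genes. Of 3 intestinal genes, with Alpi the brightest, none passed limma's adjusted threshold. Alpi passed it at -0.44 with a background offset of 0 (adjusted p = 0.0492 from limma). With the deposited log ratio it passed at -0.78 (adjusted p = 0.0178 from limma). Immune genes, led by Cd74, had 1 of 3 higher, beside 11.6% of all genes. The higher gene was Cd74, at 0.49 (adjusted p = 0.021 from limma, 0.132 without replicate 3).
Red cell markers had their lowest summed G200 signal on replicate 3. Their 4 genes, led by Hba-a1, summed to 103921, 100361 and 117202 in the control and to 108152, 86424 and 43592 in G200, and 1 of 4 was called lower, near the 25.9% of all genes. That gene, Slc4a1, the anion exchanger of red cells, named after its values were seen, was lower on every array, at -0.65, -0.51 and -0.89. The order of the arrays was that of the carriers in 3 of the 4 genes, beside 13.5% of all genes. Hba-a1, from a multigene family whose copies a probe may share, had ratios of 0.03, -0.29 and -1.55 and a mean of -0.60. This mean was -0.13 without replicate 3 and 0.30 with median centring. Without replicate 1 it was -0.92 and called lower (adjusted p = 0.0235 from limma). The part of blood in the values of replicate 3 was not tested.

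**Figure D5:**
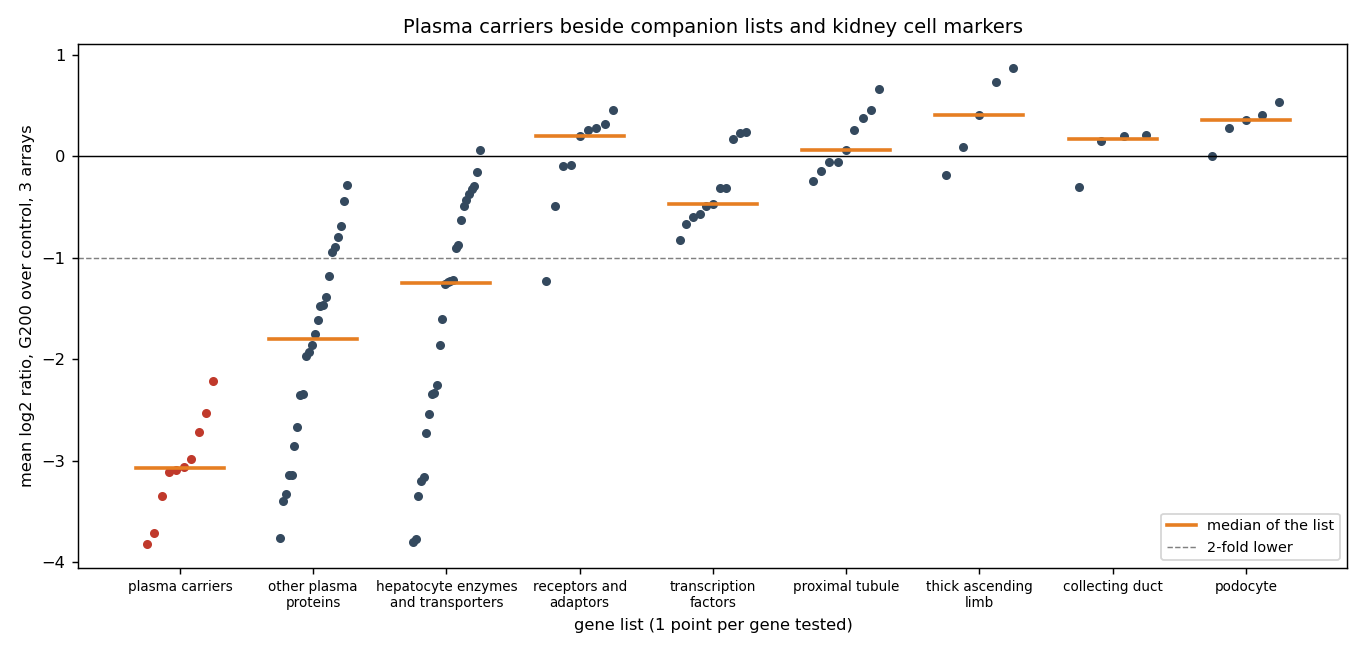
Mean log2 ratio of G200 over control (3 arrays) of each gene tested, for the 10 plasma carriers (red), the companion lists and markers of kidney cells (dark points). Orange bars are list medians, and the dashed line marks a 2-fold fall. The carriers have a median of -3.08 and the kidney lists have medians from 0.06 to 0.41. The companion lists hold dimmer probes, so their medians are not compared with that of the carriers.

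Receptors and adaptors that take up or recycle the carriers were taken from a list of 13 genes, of which 9 were tested, 4 of them higher and 2 lower, beside 11.6% and 25.9% of all genes, with a median of 0.20. The lower genes were the hepatocyte asialoglycoprotein receptor subunits Asgr1 (-1.07, -1.08 and -1.54 on replicates 1, 2 and 3) and Asgr2 (-0.36, -0.43 and -0.70). Asgr2 was not called without replicate 3 (adjusted p = 0.0667 from limma), and its mean was 0.02 without dye normalization, where Asgr1 was at -0.36 and not called (adjusted p = 0.198 from limma). The mean of Asgr2 was -1.01 with a background offset of 0 and -1.21 with the deposited log ratio. Among the genes of the proximal tubule, cubilin (Cubn) had ratios of 0.50, 0.10 and 0.75, with a mean of 0.45 ± 0.33 (SD; adjusted p = 0.0351 from limma), and its adaptor Dab2 one of 0.32 ± 0.14 (SD; adjusted p = 0.0242 from limma). Megalin (Lrp2) and the transferrin receptor (Tfrc), named after their values were seen, had 0.26 ± 0.10 (SD; adjusted p = 0.0332 from limma) and 0.28 ± 0.19 (SD; adjusted p = 0.0498 from limma). Amn, the partner of cubilin, named after its values were seen, had -0.17, -0.07 and -0.05 and was not called (adjusted p = 0.28 from limma). These uptake genes of the tubule therefore did not share the fall of the carriers. The size of their rises depended on the dye normalization, with Cubn at 0.99 and Dab2 at 1.00 with median centring and at 1.34 and 1.35 without normalization. The number of higher genes was 6 in both of these settings, where 35.2% and 56.5% of all genes were higher. By limma, it was 1 with a background offset of 0 and 2 with the deposited log ratio. Without replicate 1 it was 1, and without replicate 3 it was 0. Over all 14188 genes, 1522, 2150, 867 and 185 were higher in the same settings. The last is 1.3% of all genes, so the count of 0 does not set the list apart from them.

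Transcription factors of hepatocyte genes were taken from a list of 18 genes, of which 11 were tested, 8 of them lower and 1 higher, beside 25.9% and 11.6% of all genes, with a median of -0.47. With median centring 3 were lower and 2 higher, beside 8.79% and 35.2% of all genes. Without dye normalization 0 were lower and 3 higher by limma, beside 2.14% and 56.5%. With both colours required, 5 of the 8 genes tested were lower, beside 23.3% of all genes. Of the 8 genes called lower with loess, 3 (Onecut1, Foxa2 and Nr1i3) passed the filter through the control alone. Among the other genes the lowest mean was that of Nr1i2, the xenobiotic receptor PXR, at -0.70, -0.66 and -1.10 (mean -0.82 ± 0.25, SD; adjusted p = 0.00301 from limma). Onecut1 was not well above background in G200 on any array, so it is given as a bound, at least 1.58-fold lower with loess, and is not ranked. Without dye normalization its measured mean was -0.39 and it was not called (adjusted p = 0.121 from limma). Foxa2 and Nr1i3, named after their values were seen, were also not well above background in G200 on any array. Foxa2 was at least 1.38-fold lower. For the bounds of Onecut1 and Foxa2, G200 was given the lowest level that counts as well above background wherever its own level was lower. The mean level of Nr1i3 was not changed by this rule, so its 1.24-fold fall is the measured value and not a bound. Nr1h4, the bile acid receptor FXR, had a mean of -0.60 ± 0.15 (SD), and Cebpb one of -0.57 ± 0.36 (SD; adjusted p = 0.0199 from limma, 0.0977 without replicate 3). Without replicate 3, 4 of the 11 were lower, beside 10.1% of all genes. The higher count by limma was 0 without replicate 1 or without replicate 3, beside 6.11% and 1.3% of all genes. The ratios of Nr1h4 and Cebpb turned positive with median centring, at 0.05 and 0.10. That setting shifts the median over all genes to 0.27, from -0.05 with loess, and no normalization shifts it to 0.62 and turns Nr1i2 to 0.04.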

How the data were processed

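Control RNA and G200 RNA were hybridised together to each of 3 arrays. The authors deposited Feature Extraction tables (version 11.5.1.1 in the file headers, 9.3.2.1 in the submitters' processing notes) holding the median intensity of each spot and its local background in both colours, before correction. The deposited tables also hold a log10 ratio of red over green, background-subtracted and dye-normalized by the authors, used here as an alternative.
With limma 3.58.1 in R 4.3.3, background was corrected by normexp (offset 50, all 44254 spots) and dyes were normalized by loess within arrays (span 0.3). Control spots and outlier-marked spots were left out. Replicate spots were averaged. Of 30367 probes, 18355 were named through their accession in the RefSeq table of GRCr8. A probe was kept if it was well above background in either Cy3 or Cy5 on each of the 3 arrays, in 1 colour throughout, and the brightest probe stood for its gene, which left 14188 genes. Of these, 8917 had a symbol. Each of the others is a probe counted as a gene, also in the shares of all genes, so some genes may be counted more than once. Channel levels were also scaled between arrays (Aquantile).
For each gene, limma (lmFit, eBayes) tested whether the mean over arrays differed from 0, in both directions, and p values were adjusted by Benjamini-Hochberg across the 14188 genes. Between arrays, probes with at least 5 spots differed in Cy3 by 1.08 to 1.74 times the squared difference given by replicate spots, and in Cy5 by 12.2 to 19.9 times. The control was therefore counted as 1 sample, so the spread of control rats is not part of the test. Precision is limited by there being 3 arrays.
The members and lists were chosen with earlier results of these data known. Named genes are every member, the 4 largest ratios of each companion list and any gene called against its list, the 8 genes nearest to Alb and to the members' median, and the brightest gene of each of 13 marker lists. The steps were tested on simulated data, with results that are not given here. Alternatives changed the dye normalization, the offset, the filter, the choice of probe, the variance model or the test, or left out an array.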

Additional observations from a re-analysis of the deposited data

How the results depend on the processing

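The median of the 10 carrier genes ranged from -3.76 to -1.97 over the alternatives, and it and the differences of Gc, Tf, Alb and Ttr from it moved by less than 1 SD of the arrays in each. Of the members' log2 ratios under alternatives, 108 moved by less than 1 SD, a count that includes 3 alternatives on filters and probes that cannot change members with 1 probe, and 2 moved by more, those of Gc (-1.11) and Tf (-1.34) without dye normalization. Of the members' channel levels, 30 moved by less than 1 SD and 10 by more. Without dye normalization the mean control level of Ttr, for example, was 15.12 in place of 15.72. Of the named genes' results, 419 kept their direction and side of the threshold, 71 lost the call, 12 gained it and 17 changed sign. The cause was not tested, except that fewer arrays or probes enter some settings.
The median of all genes was -0.05 with loess, 0.27 with median centring and 0.62 without normalization, and higher genes made up 30.8%, 80.0% and 96.3% of calls.
With median centring, 1247 genes were lower and 4991 higher, the receptor list had 1 lower and 6 higher, the transcription factor list 3 lower and 2 higher, and 105 genes and 0 members were 2-fold lower on every array. The ratios that changed sign were Nr1h4 (0.0527), Cebpb (0.104), Aqp2 (0.564), Adipoq (0.319) and Hba-a1 (0.304).
Without normalization between the dyes, 304 genes were lower and 8010 higher. The plasma protein list had 14 lower, the enzyme list 12, the receptor list 0 lower and 6 higher, and the transcription factor list 0 lower and 3 higher, and 22 genes and 0 members were 2-fold lower on every array. Sign changes were in Asgr2 (0.0223), Nr1i2 (0.0378), Nr1h4 (0.403), Cebpb (0.454), Aqp2 (0.914), Adipoq (0.669), Cyp21a1 (0.226), Alpi (0.209) and Hba-a1 (0.654).
With an offset of 0, 3455 of the 14188 genes were lower and 1522 higher. The receptor list then had 1 higher, the transcription factor list 2 higher, and 692 genes were 2-fold lower on every array. With the authors' log ratio, 3178 genes were lower and 2150 higher. The receptor list then had 2 higher, the transcription factor list 2 higher, Adipoq was at 0.0306, and 1048 genes were 2-fold lower on every array. With both colours well above background, 2911 of 12499 genes were lower and 1448 higher, and the transcription factor list had 5 lower and 0 higher.
By the methods' t-test, run on the log ratios against 0, 2 genes were lower and 0 higher, with 4476 at an unadjusted p under 0.05. The plasma protein list had 0 lower, the enzyme list 0, the receptor list 0 lower and 0 higher, and the transcription factor list 0 lower and 0 higher. Of all calls 0% were then higher.
Leaving out 1 replicate at a time, 1433 to 3351 genes were lower and 185 to 1622 higher, and 342 to 522 were 2-fold lower on every array. The enzyme list had 15 to 24 lower, the receptor list 1 to 2 lower and 0 to 3 higher, and the transcription factor list 4 to 8 lower and 0 to 1 higher. Slc12a3 ranged from -0.104 without replicate 1 to 0.612 without replicate 3, and Adipoq from -0.159 without replicate 1 to 0.0778 without replicate 3.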

Other observations

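Agt and Serpinc1 did not follow the arrays as the carriers did, and both were named after their values were seen. Agt, which encodes angiotensinogen and is also expressed in the proximal tubule, had log2 ratios of -1.26, -1.03 and -1.24 on replicates 1, 2 and 3, with a control level of 12.16. The hepatocyte marker Serpinc1, which encodes antithrombin, had its lowest ratio on replicate 2, at -3.06, with -2.01 and -2.68 on replicates 1 and 3.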
